A study of Homo sapiens with 42 samples.

Results

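The 10 genes described here are CIITA and 9 genes of the MHC class II system, namely CD74, HLA-DRA, HLA-DRB1, HLA-DPA1, HLA-DPB1, HLA-DQA1, HLA-DQB1, HLA-DMA and HLA-DMB. They were taken by name from a table of 57353 gene names, and each had 1 row. Of the 10, 8 passed the filter on low values (a mean of at least 1 count and of at least 1 CPM over all libraries, CPM being the count scaled to library size) and so were among the 12939 genes tested. HLA-DPA1, at a mean of 0.669 CPM, and HLA-DQA1, at 0.0947 CPM, did not pass and are described by their counts. HLA-DPB1 (1.02 CPM) and HLA-DMB (1.47 CPM) passed only narrowly and mostly through the groups in which they were high, so the number that passed is no measure of the gene set.

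Poly(A) RNA was sequenced from MOLM-13, an established human acute myeloid leukemia line that carries the FLT3-ITD mutation, in 21 cultures and 7 conditions with 3 replicates each. Every culture gave an input library of whole-cell RNA and a library from heavy polysomes, the mRNA that sediments with many ribosomes, which makes 42 libraries with totals of 19.4 to 38.8 M counts. Input and polysome libraries of a condition with the same replicate number are taken here as 1 culture, which the labels do not state. In regular RPMI medium the cells received vehicle, 3 nM quizartinib (an inhibitor of FLT3 kinase), or the combo of 3 nM quizartinib and 10 nM everolimus (an inhibitor of mTORC1). In hBMSC-CM, RPMI mixed with medium conditioned by the HS-5 human bone marrow stromal line, they received vehicle, 10 nM everolimus alone, 3 nM quizartinib, or the combo, and all cultures were harvested after 12 h. All samples come from this 1 cell line and the conditioned medium from 1 stromal line, and the study calls its replicates biological without saying here whether they were separate thaws or days, so p-values measure the spread between these cultures. Of 12 monocytic leukemia markers, 11 had counts in all 42 libraries (LYZ, lysozyme, was at 321 to 983 CPM in input), and CD14 was at 0 in 9. Of 7 dendritic cell genes, CD1A and CD1C were at 0 in all 42 libraries, while BATF3 reached 20.6, CLEC10A 3.94 and XCR1 2.82 CPM in input. Of 5 B cell genes, MS4A1 was at 0 in 33 libraries, while CD79A had counts in all 42, at up to 2.14 CPM in input.

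MHC class II molecules are heterodimers of an alpha and a beta chain (HLA-DR, -DP and -DQ) that present peptides from endocytosed proteins to CD4+ T cells. CD74, the invariant chain, escorts newly made dimers to the endocytic compartment, and HLA-DM then exchanges the remnant of CD74 in the groove for a peptide. Transcription of the whole set depends on CIITA, a co-activator that binds no DNA itself but docks on a complex of RFX, CREB and NF-Y proteins at the X and Y boxes of class II promoters. Low class II expression on leukemic blasts is known from relapse after allogeneic transplantation.

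The genes lie at 3 places in the genome (GENCODE annotation, GRCh38). CIITA spans chr16:10866222-10943021 on the plus strand, CD74 spans chr5:150401637-150412969 on the minus strand, and the HLA genes lie on chromosome 6, for example HLA-DRA at chr6:32439878-32445046 on the plus strand and HLA-DMA at chr6:32948613-32969094 on the minus strand. The sources used here do not say whether counting used strand, and exons of CIITA overlap those of genes on the other strand, DEXI among them, over 2591 bases, those of HLA-DQB1 overlap HLA-DQB1-AS1 over 241, those of HLA-DPA1 and HLA-DPB1 overlap each other over 96, and those of HLA-DMA overlap BRD2 over 55. Reads of HLA-DRB1 can also be shared with its near-identical copy HLA-DRB5, and the HLA genes are polymorphic, so their absolute levels are uncertain.

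The X and Y boxes are shown because they are the sequence feature that ties the set to CIITA. Promoter sequences (RefSeq, GRCh38.p14, from 250 bases before to 50 bases after the gene start) were found for 8 of the 10 genes, in 9 promoters, and not for CIITA and HLA-DRA. An X box was searched as AGNNACNGA and the core of a Y box as ATTGG, a pair of letter strings chosen after these promoters had been read. Of 35116 promoters in the table, 15.3% held the X letters and 34.6% the Y letters on either strand. Both on 1 strand, X first and with 20 to 45 bases between them, stood in 110 promoters (0.313%), and 4 of them were the promoters below, where 24 or 25 bases separate the capitals. They are written 5′ to 3′ on the strand of the gene, with both matches in capitals, at chr6:32589885-32589932 (minus), chr6:32637299-32637347 (plus), chr6:32666736-32666783 (minus) and chr6:32953167-32953215 (minus).
HLA-DRB1: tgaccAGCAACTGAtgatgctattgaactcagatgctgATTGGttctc
HLA-DQA1: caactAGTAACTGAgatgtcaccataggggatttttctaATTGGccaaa
HLA-DQB1: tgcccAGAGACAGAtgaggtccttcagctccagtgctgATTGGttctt
HLA-DMA: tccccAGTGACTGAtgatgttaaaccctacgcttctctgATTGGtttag

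The X match began 79 bases before the RefSeq gene start in HLA-DRB1, 102 in HLA-DQA1, 121 in HLA-DQB1 and 113 in HLA-DMA. RefSeq starts can differ from the ends of the GENCODE spans, and that of HLA-DMA lies inside the span given above. The pair of strings was not in the windows of CD74, HLA-DPA1, HLA-DPB1 and HLA-DMB in this form, which says only that these letters are absent there. Whether the motifs bear on the levels below was not tested.

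Levels between genes can be compared only per length. Per kilobase of coding sequence, mean input levels over the 21 cultures ran from 555 CPM per kilobase for CD74 to 0.0922 for HLA-DQA1. HLA-DQB1 (11.6), HLA-DRA (10.6), HLA-DMA (9.81) and HLA-DRB1 (4.83) formed a middle group. CIITA (1.61), HLA-DMB (1.49), HLA-DPB1 (0.764) and HLA-DPA1 (0.501) followed. The alpha and beta chains of the DQ dimer thus differed far more in counted reads than those of the DR or the DP dimer. The part of alignment to 1 reference in this was not tested, and these genes are polymorphic.

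Quizartinib in RPMI asked how inhibition of FLT3 changed the set without stromal factors. CIITA, CD74, the DR chains, HLA-DPB1, HLA-DQB1 and both DM chains all rose in input RNA, by 1.18 to 3.41 on the log2 scale. That is 8 of 8 tested members called at an adjusted p under 0.05, against 34.6% of all 12939 genes (16.6% higher and 18.0% lower). No replicate value of a treated culture reached down into the vehicle range, a property not computed over all genes. HLA-DPB1 and HLA-DMB, which passed the filter mostly through the groups where they were high, had to differ. Their calls and their separation carry no weight here. The other 6, each at a mean of at least 1 CPM in vehicle input of both media, were all called, with changes of 1.18 to 3.03 and a median of 2.24, against 0.08 over all genes tested. In bulk RNA a change in the number of cells that express a gene and a change in RNA per cell cannot be told apart. The study reports that quizartinib lowered the yield of RNA from input as well. All changes and folds in input given here are therefore relative to the other mRNAs and are no amounts of mRNA.

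CIITA, the master regulator, was at 1.49, 2.64 and 2.44 CPM in replicates 1, 2 and 3 of vehicle in RPMI and at 5.49, 12.0 and 14.2 CPM under quizartinib. The lowest treated culture, replicate 1, was still above the highest vehicle culture. The fitted change was 2.27 ± 0.37 (SE, n = 3 per group) on the log2 scale, a 4.82-fold rise, at an adjusted p of 9.86e-06.

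CD74 was the most abundant gene of the set throughout. It was at 326, 371 and 323 CPM in vehicle and at 681, 798 and 831 CPM under quizartinib in RPMI, and the groups did not overlap. Its log2 change of 1.18 ± 0.35 (adjusted p 0.00815) was the smallest of the 8.

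The DR chains form the most abundant class II dimer of most antigen-presenting cells. HLA-DRA, the alpha chain, was at 1.16, 1.21 and 1.79 CPM in vehicle and at 5.29, 13.5 and 15.0 CPM under quizartinib. HLA-DRB1, the beta chain, was at 0.682, 1.38 and 1.59 CPM and at 2.55, 6.27 and 8.35 CPM. Replicate 1 was the lowest treated culture for both, and both groups stayed apart. HLA-DRA rose by 3.03 ± 0.53 (adjusted p 2.48e-05) and HLA-DRB1 by 2.24 ± 0.52 (adjusted p 0.000856) on the log2 scale.

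HLA-DQB1, the DQ beta chain, was at 4.90, 4.42 and 5.11 CPM in vehicle and at 10.3, 10.8 and 14.7 CPM under quizartinib, with a log2 change of 1.31 ± 0.26 (adjusted p 0.000112). Its partner HLA-DQA1 had no count in the 3 vehicle libraries and 0, 0 and 4 counts under quizartinib, so no change can be read for it. The DP genes were scarce as well. HLA-DPB1 had 0, 2 and 4 counts in vehicle and 8, 44 and 25 under quizartinib, and its log2 change of 3.41 ± 0.81 (adjusted p 0.0011) rests on those few vehicle counts. HLA-DPA1, the DP alpha chain, had 0 counts in all 3 vehicle input libraries and 8, 39 and 19 under quizartinib. Set against a floor of 3 counts over the 3 vehicle libraries, HLA-DPA1 in input was at least 20.3-fold higher under quizartinib. Its polysome values were 0, 0.911 and 0 CPM in vehicle and 0.598, 2.31 and 1.16 CPM under quizartinib, which overlapped.

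The peptide editor HLA-DM moved with the chains it serves. HLA-DMA was at 1.54, 2.67 and 2.81 CPM in vehicle and at 7.49, 9.97 and 15.9 CPM under quizartinib, a log2 change of 2.25 ± 0.36 (adjusted p 6.36e-06). HLA-DMB was lower in level, at 0.101, 0.373 and 0.372 CPM and then 0.466, 1.29 and 2.18 CPM, a log2 change of 2.23 ± 0.77 (adjusted p 0.0231). HLA-DMB is the one member of the 8 whose call was lost under an alternative (adjusted p 0.095 with limma voom, 0.134 without RPMI quizartinib replicate 3 and 0.0904 without RPMI vehicle replicate 1).

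**Figure D1:**
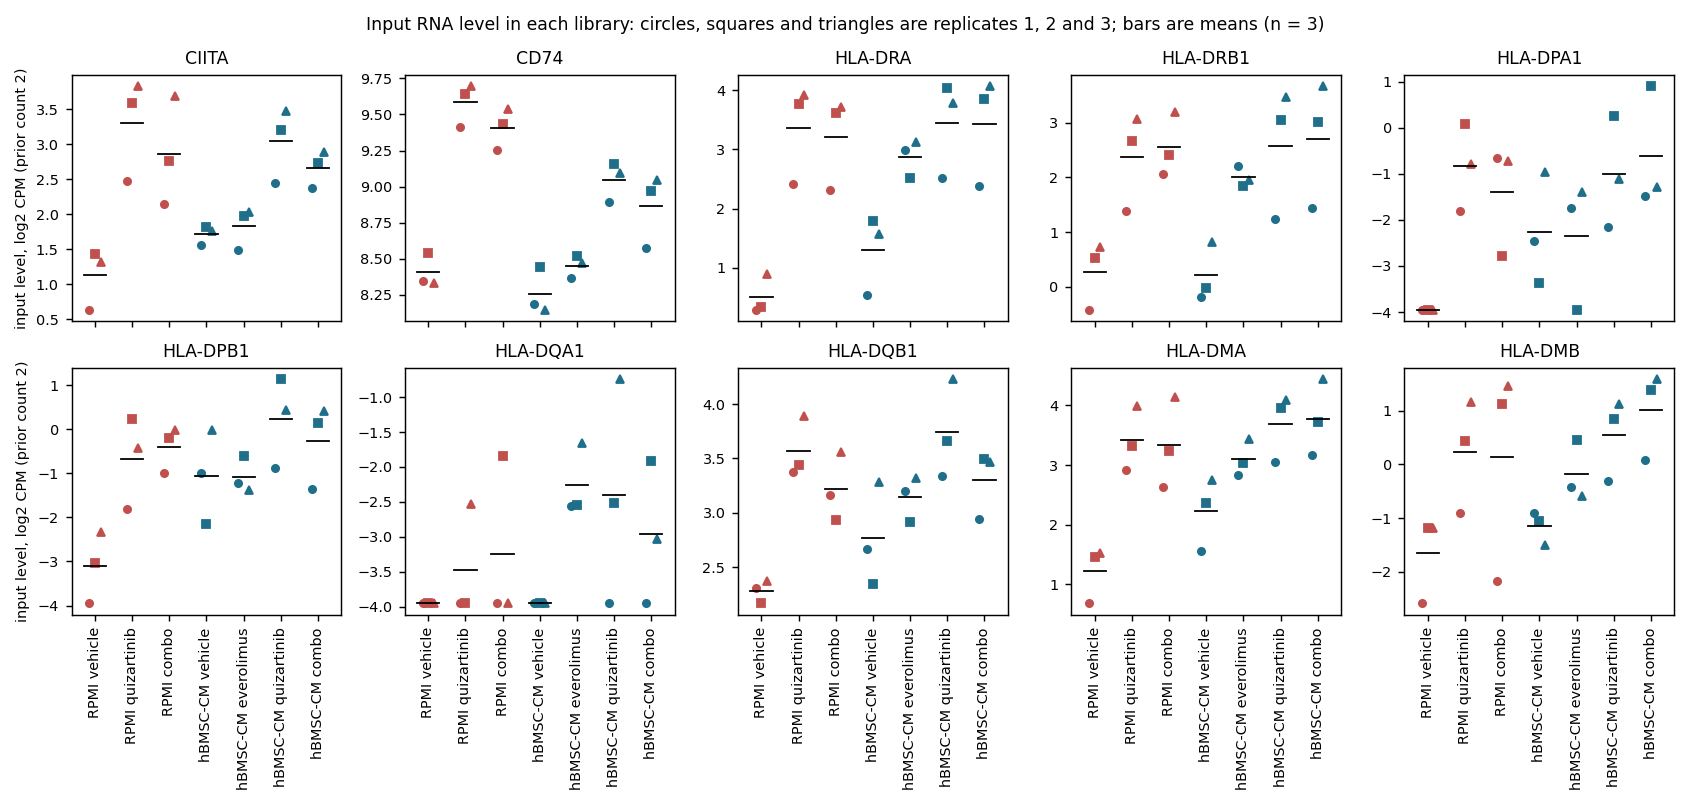
Input level of each of the 10 genes (log2 CPM, y axis, a scale of its own in each panel) in the 3 replicates of the 7 conditions (x axis), with RPMI cultures in red, hBMSC-CM cultures in blue and bars at the means. The cultures with quizartinib or the combo sit above those with vehicle for CIITA, CD74, HLA-DRA, HLA-DRB1 and HLA-DMA in both media, and replicate 1 (circles) was the lowest for 8 of 8 tested genes under quizartinib.

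The members shared the order of their replicate cultures. In input, replicate 1 was the lowest of the 3 for 8 of 8 tested members under quizartinib in RPMI, under quizartinib in hBMSC-CM and under the combo in hBMSC-CM, and for 7 of 8 under the combo in RPMI. In vehicle it was the lowest for 6 of 8 in RPMI and 4 of 8 in hBMSC-CM, and under everolimus for 3 of 8. Over the 21 input libraries the 28 pairs of tested members had Pearson correlations of log2 CPM from 0.50 (CD74 with HLA-DPB1) to 0.95 (HLA-DRA with HLA-DMA), with a median of 0.82. CIITA correlated at 0.78 to 0.87 with the other 7. These libraries share conditions and replicate numbers, so the values describe the pattern and are no test.

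In hBMSC-CM the same drug was added on top of stromal factors. CIITA, HLA-DRA, HLA-DRB1, HLA-DQB1 and HLA-DMA rose, that is 5 of 8 tested members, against 12.3% of all genes called (5.46% higher and 6.84% lower). Among the same 6 genes CD74 was the one not called, and their median change was 1.44, against 0.01 over all genes. CIITA went from 2.89, 3.48 and 3.31 CPM to 5.40, 9.16 and 11.1 CPM (log2 change 1.40 ± 0.36, adjusted p 0.00912). HLA-DRA went from 1.40, 3.41 and 2.91 CPM to 5.65, 16.3 and 13.8 CPM (2.21 ± 0.51, adjusted p 0.00343). Neither gene's groups overlapped.

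HLA-DRB1 had the largest change of the set in this medium, from 0.817, 0.925 and 1.71 CPM to 2.28, 8.16 and 11.0 CPM (log2 change 2.62 ± 0.52, adjusted p 0.00101). HLA-DMA went from 2.89, 5.07 and 6.67 CPM to 8.19, 15.5 and 16.9 CPM (1.47 ± 0.35, adjusted p 0.0046). HLA-DQB1 went from 6.30, 5.01 and 9.69 CPM to 10.1, 12.5 and 18.7 CPM (0.97 ± 0.25, adjusted p 0.00953). The HLA-DQB1 groups were separated by a narrow margin, and its call was lost without hBMSC-CM quizartinib replicate 3 (adjusted p 0.0908), without hBMSC-CM vehicle replicate 2 (0.0647) and in a fit of these 2 groups alone (0.0932).

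CD74, HLA-DPB1 and HLA-DMB did not pass in hBMSC-CM. CD74 was at 291, 347 and 283 CPM in vehicle and at 476, 571 and 547 CPM under quizartinib, groups that did not overlap, with a log2 change of 0.79 ± 0.35 (adjusted p 0.133). With the libraries of these 2 groups alone its adjusted p was 0.0244, and without the filter on low counts it was 0.0208. HLA-DMB gave 1.96 ± 0.75 (adjusted p 0.0808, and 0.0368 with DESeq2) and HLA-DPB1 1.34 ± 0.63 (adjusted p 0.166). HLA-DPA1 had 4, 1 and 17 counts in vehicle and 5, 41 and 9 under quizartinib, ranges that overlapped.

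Whether the 2 media differed in the response to quizartinib was tested directly as an interaction. None of the 8 members passed, against 1.96% of all genes. The estimates were negative, that is a smaller change in hBMSC-CM, for 7 of the 8, HLA-DRB1 (0.38 ± 0.72) being the exception. CIITA had -0.87 ± 0.51 (adjusted p 0.646) and HLA-DRA -0.82 ± 0.70 (adjusted p 0.861). Over the members the 95% intervals (normal, from the SE) reached from -4.08 to 1.80, and that of HLA-DMB alone from -2.32 to 1.80, so a smaller or a larger response in hBMSC-CM was not detectable for it.

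**Figure D2:**
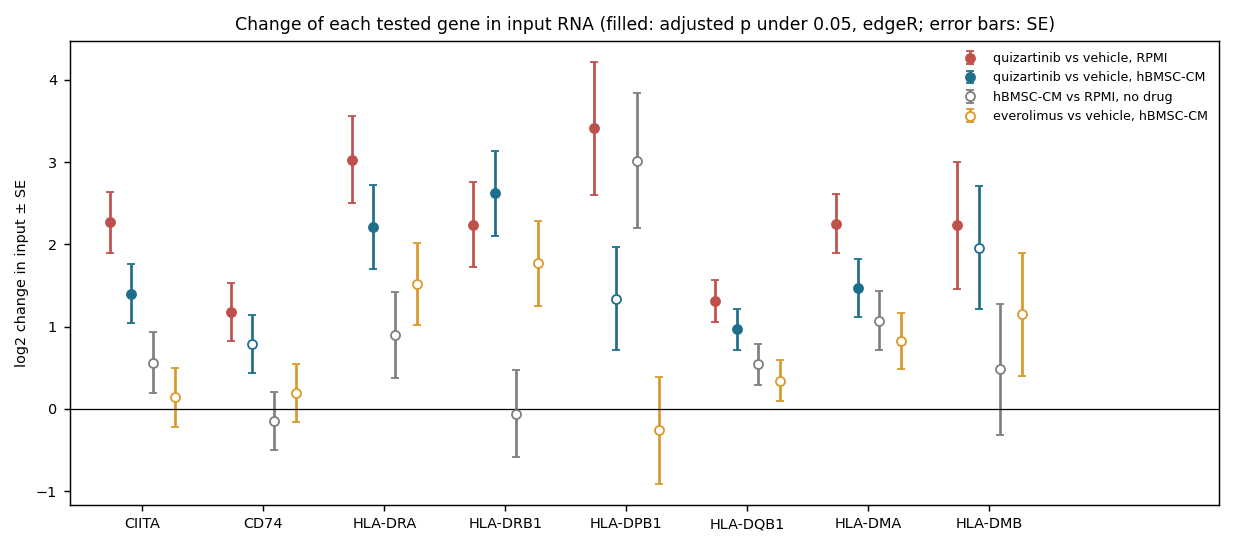
Log2 change in input RNA (y axis, error bars ± SE) of the 8 tested genes (x axis) in 4 comparisons, with filled points for an adjusted p under 0.05. All 8 red points (quizartinib in RPMI) are filled, 5 of the 8 blue points (quizartinib in hBMSC-CM) are filled, and none of the grey (medium alone) or yellow (everolimus) points is.

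hBMSC-CM alone, without drug, was compared with RPMI to ask what stromal factors did to the set. The groups of CIITA, HLA-DPB1 and HLA-DMA did not overlap, a property not computed over all genes. No member passed, against 1.51% of all genes (1.30% higher and 0.209% lower). HLA-DPB1 came nearest, with 0, 2 and 4 counts in RPMI against 15, 5 and 35 in hBMSC-CM (log2 change 3.02 ± 0.82, adjusted p 0.0509). This value lay so close to the threshold that it passed with RLE factors (0.0492), with DESeq2 (0.0151) and without any of 4 single cultures (0.0298 to 0.0445), of which hBMSC-CM vehicle replicate 2 is the one in the comparison. HLA-DPA1, at 0 counts in RPMI input, had 4, 1 and 17 in hBMSC-CM input, at least 7.36-fold above the floor of 3 counts over the group. Its polysome libraries had 0 to 25 counts in RPMI vehicle and 1 to 5 in hBMSC-CM vehicle.

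HLA-DMA was at 1.54, 2.67 and 2.81 CPM in RPMI and at 2.89, 5.07 and 6.67 CPM in hBMSC-CM (log2 change 1.07 ± 0.36, adjusted p 0.185), and CIITA at 1.49 to 2.64 against 2.89 to 3.48 CPM (0.56 ± 0.37, adjusted p 0.945). In both, the groups stayed apart without passing the test. For CD74 (-0.15 ± 0.35) and HLA-DRB1 (-0.06 ± 0.53) the values overlapped.

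Under quizartinib none of the 8 members passed between the 2 media, against 8.16% of all genes (6.11% higher and 2.05% lower). Estimates for hBMSC-CM minus RPMI ran from -0.54 ± 0.35 for CD74 to 0.95 ± 0.62 for HLA-DPB1. CD74 was the one gene whose replicates did not overlap, at 476 to 571 CPM in hBMSC-CM and 681 to 831 CPM in RPMI (adjusted p 0.462). Under the combo none of the 8 passed either, against 5.36% of all genes, and CD74 again stood apart without passing, at 381 to 529 against 611 to 743 CPM (-0.54 ± 0.35, adjusted p 0.663).

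Everolimus was added to quizartinib to ask what mTORC1 inhibition changed. In RPMI none of the 8 members passed, against 0.00773% of all genes, and the estimates for combo minus quizartinib ran from -0.41 ± 0.35 (CIITA) to 0.34 ± 0.69 (HLA-DMB). In hBMSC-CM none passed either, against 0.240%, with estimates from -0.57 ± 0.61 (HLA-DPB1) to 0.50 ± 0.69 (HLA-DMB). For CIITA the 95% intervals were -1.10 to 0.28 in RPMI and -1.12 to 0.27 in hBMSC-CM. No member had groups that stayed apart in either medium.

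Everolimus alone was measured only in hBMSC-CM. No member passed, against 0.410% of all genes. The groups of HLA-DRA, HLA-DRB1, HLA-DMA and HLA-DMB did not overlap. The share of all genes without overlap was not computed. HLA-DRB1 was at 0.817, 0.925 and 1.71 CPM in vehicle and at 4.54, 3.50 and 3.81 CPM under everolimus (log2 change 1.77 ± 0.52, adjusted p 0.129). HLA-DRA was at 1.40, 3.41 and 2.91 CPM and at 7.90, 5.64 and 8.66 CPM (1.52 ± 0.50, adjusted p 0.211). The vehicle and everolimus cultures were apart for both genes. HLA-DRB1 passed with DESeq2 (adjusted p 0.0328), and without a filter on low counts both passed (0.000182 for HLA-DRB1 and 0.000392 for HLA-DRA).

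The DM genes gave 0.82 ± 0.34 (HLA-DMA, adjusted p 0.43) and 1.15 ± 0.75 (HLA-DMB, adjusted p 0.743), both without overlap. CIITA was at 2.89 to 3.48 CPM in vehicle and 2.74 to 4.03 CPM under everolimus (0.14 ± 0.36, adjusted p 0.981), ranges that overlapped, and CD74 gave 0.19 ± 0.35 (adjusted p 0.964). HLA-DQA1, at 0 counts in all vehicle libraries of both media, had 4, 4 and 8 counts under everolimus in hBMSC-CM.

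The order of the 7 conditions in input followed from these values. For CIITA the means ± SD (n = 3) were 10.5 ± 4.52 CPM in RPMI quizartinib, 8.54 ± 2.89 in hBMSC-CM quizartinib, 7.93 ± 4.33 in RPMI combo, 6.34 ± 1.12 in hBMSC-CM combo, 3.55 ± 0.706 in hBMSC-CM everolimus, 3.22 ± 0.303 in hBMSC-CM vehicle and 2.19 ± 0.614 in RPMI vehicle. Neighbours overlapped within the first 4 and between everolimus and vehicle in hBMSC-CM, and were separate at the 2 other steps. For HLA-DRA the 4 conditions with quizartinib had means of 10.0 to 12.1 CPM and overlapped, everolimus followed at 7.40 ± 1.57, and the step down to hBMSC-CM vehicle at 2.58 ± 1.05 was a separation. HLA-DMA and HLA-DMB also separated between everolimus and hBMSC-CM vehicle. HLA-DRB1 separated between everolimus and RPMI vehicle (1.22 ± 0.475), with hBMSC-CM vehicle last, and HLA-DPB1 between everolimus (0.423 ± 0.144) and RPMI vehicle (0.0642 ± 0.0679).

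Under quizartinib and the combo the CD74 means were higher in RPMI than in hBMSC-CM, though neither medium comparison passed (edgeR adjusted p 0.462 and 0.663). RPMI quizartinib (770 ± 79.0 CPM) and RPMI combo (682 ± 66.4) overlapped and lay above hBMSC-CM quizartinib (531 ± 49.4) and hBMSC-CM combo (470 ± 78.8). The 3 conditions without quizartinib, from 351 ± 19.4 to 307 ± 34.8 CPM, overlapped among themselves and lay below. HLA-DQB1 was graded, with every pair of neighbours overlapping from 13.8 ± 4.44 CPM in hBMSC-CM quizartinib to 4.81 ± 0.351 in RPMI vehicle.

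The genes whose input pattern was most like that of CIITA, by Pearson correlation of log2 CPM over the 21 input libraries among 8637 genes with at least 10 CPM, were MBD6 (0.947), ARHGAP9 (0.945), CCS (0.942), COG4 (0.941) and ZNF580 (0.936). For CD74 they were PAN3-AS1 (0.975), CD36 (0.960), C9orf139 (0.960), ETS2 (0.960) and COL9A2 (0.958). Each list holds the highest of 8637 values, so it is no measure for the class II genes, which correlated with CIITA at 0.78 to 0.87. Of those class II genes all but CD74 had a mean below 10 CPM in input.

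The enhanceosome is the RFX, CREB and NF-Y complex on which CIITA docks. Of its 7 subunits tested, none was higher and 2 were lower under quizartinib in RPMI, against the background of 16.6% higher and 18.0% lower. RFXAP, an RFX subunit, changed by -1.04 ± 0.24 (adjusted p 0.00102) and NFYA, the DNA-binding subunit of NF-Y, by -0.73 ± 0.21 (adjusted p 0.00724). RFX5, the RFX subunit that contacts the X box, changed by 0.09 ± 0.32 (adjusted p 0.848). In hBMSC-CM under quizartinib, and between the media, none of the 7 passed.

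Of 7 cofactors that CIITA recruits, 3 rose and 3 fell under quizartinib in RPMI, against 34.6% of all genes called, and none passed in hBMSC-CM, against 12.3%. KAT2B, a histone acetyltransferase, rose by 1.37 ± 0.36 (adjusted p 0.00258) and CREBBP, another, by 1.14 ± 0.28 (adjusted p 0.00146). Those that fell, named after their values were seen, were SMARCA4, a chromatin remodeller (-0.97 ± 0.28, adjusted p 0.00707), CARM1, an arginine methyltransferase (-0.75 ± 0.24, adjusted p 0.0141), and HDAC2, a histone deacetylase (-0.74 ± 0.30, adjusted p 0.0475).

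Interferon gamma induces CIITA through JAK kinases and IRF1, and 14 of 15 listed genes of this route and of factors at CIITA promoters were tested. Under quizartinib in RPMI 6 rose and 2 fell, and in hBMSC-CM 6 rose and none fell, against 16.6% higher and 18.0% lower of all genes in RPMI and 5.46% and 6.84% in hBMSC-CM. The list medians were 0.52 and 0.49, against 0.08 and 0.01 over all genes. The sixth call in hBMSC-CM, IRF2, an interferon regulatory factor named after its value was seen, lay at the threshold (0.59 ± 0.20, adjusted p 0.05 as rounded). IRF1 rose in RPMI by 0.52 ± 0.16 (adjusted p 0.00919) and gave 0.24 ± 0.16 (adjusted p 0.342) in hBMSC-CM. IFNGR1, a receptor chain, gave 0.24 ± 0.21 (adjusted p 0.385) and 0.46 ± 0.21 (adjusted p 0.142).

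The largest changes in that list lay elsewhere. PRDM1, known as a repressor of CIITA promoters in plasma cells, rose by 2.53 ± 0.47 (adjusted p 6.1e-05) in RPMI and by 2.04 ± 0.46 (adjusted p 0.00311) in hBMSC-CM. MYC, a transcription factor of growth, had a log2 change of -3.52 ± 0.32 in RPMI (adjusted p 1.85e-10) and of -0.33 ± 0.29 in hBMSC-CM (adjusted p 0.508). Under quizartinib MYC was higher in hBMSC-CM than in RPMI by 3.14 ± 0.32 (adjusted p 7.63e-09), and for that comparison CIITA gave -0.31 ± 0.35 (adjusted p 0.742). A link between MYC and CIITA was not tested.

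Between the media without drug, 1 gene of the list was higher in hBMSC-CM and 1 lower, against 1.30% and 0.209% of all genes. Under quizartinib 4 were higher and 1 lower, against 6.11% and 2.05%. SOCS3, a feedback inhibitor of JAK signalling, was higher in hBMSC-CM by 4.07 ± 0.26 (adjusted p 4.09e-13) without drug and by 4.97 ± 0.27 (adjusted p 1.06e-15) under quizartinib. IRF8, a myeloid interferon regulatory factor, was lower in hBMSC-CM without drug (-0.93 ± 0.19, adjusted p 0.00269).

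**Figure D3:**
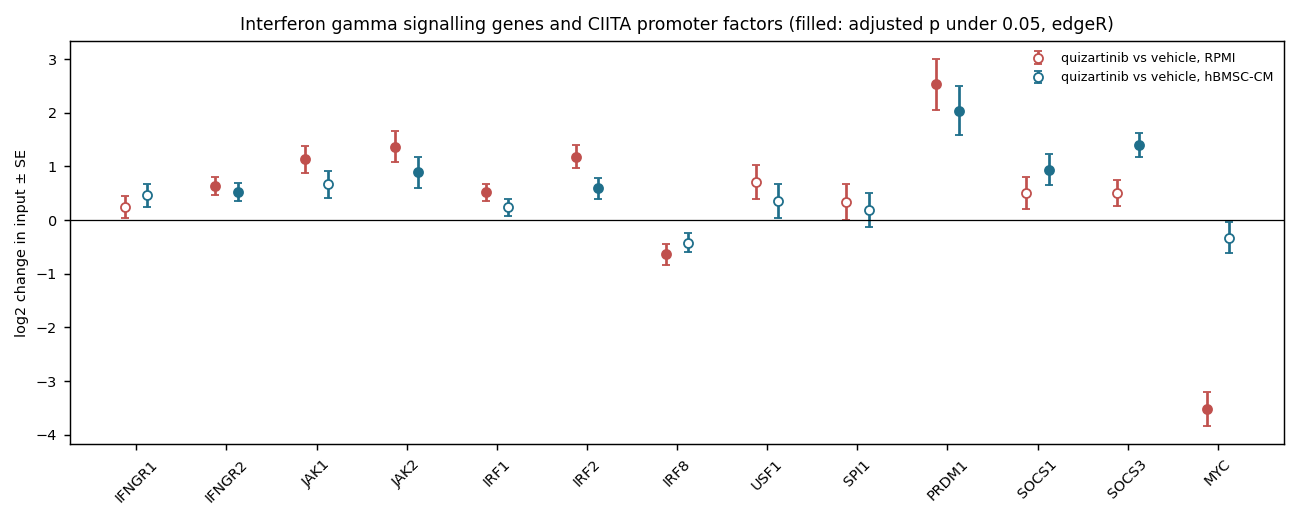
Log2 change in input RNA (y axis, error bars ± SE) under quizartinib of genes of interferon gamma signalling and CIITA promoter factors (x axis), in RPMI (red) and in hBMSC-CM (blue), with filled points for an adjusted p under 0.05. PRDM1 is the highest pair of points, at 2.53 and 2.04, and MYC is at -3.52 in RPMI and -0.33 in hBMSC-CM.

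For class II processing and turnover 13 symbols were listed, the MARCH ligases by an old and a new symbol each. Of these symbols 11 had a row of counts and 9 were tested. Under quizartinib in RPMI 3 rose and none fell, against 16.6% higher and 18.0% lower of all genes, and in hBMSC-CM none passed, against 12.3% called. CTSB, a lysosomal cysteine protease, rose by 1.25 ± 0.39 (adjusted p 0.0117) and MARCH8, a ligase that marks surface proteins for turnover, by 1.11 ± 0.38 (adjusted p 0.0199). IFI30, the thiol reductase of antigen processing, stayed at 10 counts or fewer in each RPMI vehicle and RPMI quizartinib input library and was not tested.

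Partners of class II at the cell surface were tested for 5 of 9 listed genes, of which 2 rose and 1 fell under quizartinib in RPMI, against 16.6% and 18.0% of all genes. In RPMI quizartinib raised CD86, a co-stimulatory ligand of T cells (1.62 ± 0.42, adjusted p 0.00248), and CD4, a coreceptor that binds class II and is also expressed by monocytic cells (0.66 ± 0.21, adjusted p 0.013), and lowered CD1D, which presents lipids (-1.06 ± 0.21, adjusted p 0.000124). ICAM1, an adhesion molecule, was higher in hBMSC-CM than in RPMI by 1.57 ± 0.31 (adjusted p 0.00269) without drug and by 2.08 ± 0.31 (adjusted p 1.22e-05) under quizartinib. CD80 and CD40, co-stimulatory molecules named after their values were seen, stayed at 0 to 3 counts in input of RPMI vehicle and RPMI quizartinib.

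Other class II genes were mostly below the filter. HLA-DOB, the beta chain of the DM inhibitor DO, was the one of 6 found in the table that passed the filter, and it did not pass (-0.37 ± 0.53 in RPMI, adjusted p 0.624, and 0.14 ± 0.52 in hBMSC-CM, adjusted p 0.90). Its alpha chain HLA-DOA had 0 counts in all RPMI vehicle and hBMSC-CM vehicle input libraries. HLA-DRB5 had 0 counts in RPMI vehicle and 2 to 12 under quizartinib in RPMI.

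Markers of other cell types were set beside the rise under quizartinib. The 9 stromal genes summed to 0.676 to 5.14 CPM in RPMI vehicle input and to 9.05 to 36.1 CPM under quizartinib in RPMI, and to 0.551 to 2.07 against 4.62 to 20.3 CPM in hBMSC-CM. COL1A1 made up most of this sum, at up to 33.0 CPM, while COL3A1, LUM and POSTN were at 0 counts in all 42 libraries. The sum of the 7 dendritic cell genes moved the other way, from 13.7 to 17.6 CPM down to 1.69 to 3.02 CPM in RPMI, and from 10.5 to 21.8 down to 4.72 to 7.62 CPM in hBMSC-CM. Among these genes only BATF3 reached a level of that size in input, at up to 20.6 CPM. CLEC10A reached 3.94 and XCR1 2.82 CPM, and CD1A and CD1C were at 0 counts in all 42 libraries. The 5 B cell genes summed to 1.15 to 1.89 and 1.17 to 2.33 CPM in RPMI, which overlap, but to 0.606 to 1.55 in hBMSC-CM vehicle and 2.18 to 3.32 CPM under quizartinib, which do not. The 4 T cell genes stayed at or below 1.76 CPM in every input library. The 12 monocytic leukemia genes summed to 1820 to 1950 and 2190 to 2410 CPM in RPMI, and to 2330 to 2490 and 2880 to 3000 CPM in hBMSC-CM. The part of these cell type markers in the class II result was not tested.

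The polysome libraries asked how much of each mRNA sat on many ribosomes. Averaged over the 7 conditions, 7 of 8 members were higher in heavy polysomes than in input, against 86.2% of all genes called in either direction (42.1% higher and 44.1% lower), and the median of the 8 was 1.33 against -0.03 over all genes. Without HLA-DPB1 and HLA-DMB, 6 of 6 were called, with a median of 1.58. The scale of this difference is relative, since with library size as the only scaling the median of all genes moved to -0.43 and that of the members to 0.92. All 7 stayed higher under that scaling.

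HLA-DRB1 had the largest polysome minus input difference, 1.85 ± 0.19 on the log2 scale (adjusted p 3.44e-11), and was above input in 21 of 21 cultures. HLA-DQB1 followed at 1.68 ± 0.10 (adjusted p 9.05e-18), HLA-DRA at 1.60 ± 0.19 (adjusted p 7.73e-10) and HLA-DMA at 1.55 ± 0.13 (adjusted p 2.58e-13), each above input in 21 of 21. The 95% intervals of these 4 overlapped, from 1.24 at the lowest bound to 2.21 at the highest. HLA-DPB1 gave 1.10 ± 0.26 (adjusted p 0.000172, 19 of 21 cultures) and CD74 1.07 ± 0.13 (adjusted p 3.06e-09, 21 of 21).

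CIITA, the transcriptional regulator of the set, had the smallest difference of those called, 0.75 ± 0.14 (adjusted p 4.93e-06, 20 of 21 cultures). HLA-DMB at 0.56 ± 0.28 (adjusted p 0.0597, 16 of 21 cultures) did not pass, and it passed with DESeq2 (0.0298), with RLE factors (0.0441), without the filter (0.0333) and with the culture as a block (0.027). HLA-DOB, outside the set, was lower in polysomes. The 7 enhanceosome subunits went both ways, with 3 higher and 4 lower.

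Differences in polysome minus input between conditions were then tested. The joint test over the 7 conditions called none of the 8, against 1.87% of all genes, and every adjusted p was 1. For HLA-DRA, polysome minus input was 0.14, 1.56 and 1.69 in the replicates of RPMI vehicle and 1.59, 1.38 and 1.42 under quizartinib. For CIITA it was 0.60, 0.87 and 0.09 and then 1.49, 0.47 and 0.84. For CD74 it was 0.71, 1.38 and 1.01 and then 0.61, 1.66 and 0.33. In each of these genes the groups overlapped. HLA-DMB was the one member whose groups did not, at -1.36, 0.20 and 0.33 in vehicle and 0.91, 0.49 and 0.48 under quizartinib (0.40 ± 1.10, adjusted p 0.929).

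The fitted effect of quizartinib on polysome minus input in RPMI was 0.28 ± 0.51 for CIITA, -0.08 ± 0.49 for CD74 and 0.04 ± 0.75 for HLA-DRA, with no member called against 1.55% of all genes. In hBMSC-CM the effects ran from -0.49 ± 0.69 (HLA-DRB1) to 0.40 ± 0.90 (HLA-DPB1), with 0 called of the members and 0% of all genes. Comparisons of medium under quizartinib, of combo with quizartinib in hBMSC-CM and of everolimus with vehicle in hBMSC-CM also called 0% of all genes by edgeR, although 450, 273 and 573 genes had an unadjusted p under 0.05 in them, and 288 in the preceding one. The 95% intervals of the members over these 5 comparisons reached from -2.84 to 2.62 on the log2 scale, which is the size of change in polysome share that these libraries could miss for the scarcer members.

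HLA-DRA and CIITA were also higher under quizartinib in the polysome libraries themselves, as a level relative to the other mRNAs there. Polysome levels alone were not tested. The study reports that quizartinib lowered the yield of RNA, and more so in polysomes than in input. The CPM values are therefore no amounts of mRNA on ribosomes. HLA-DRA in heavy polysomes was at 1.29, 3.68 and 5.94 CPM in RPMI vehicle and at 16.1, 35.4 and 40.1 CPM under quizartinib. CIITA was at 2.29, 4.88 and 2.6 CPM and at 15.6, 16.6 and 25.5 CPM. Neither gene's groups overlapped, a property not computed over all genes. In hBMSC-CM the polysome values of both genes were also apart. Those of CD74 overlapped there, at 444, 1050 and 460 CPM in vehicle and 788, 1610 and 884 CPM under quizartinib. CD74 in polysomes was highest in replicate 2 in 7 of 7 conditions, for example 1040, 2530 and 1040 CPM under quizartinib in RPMI, a spread that its input values (681 to 831 CPM) did not have.

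**Figure D4:**
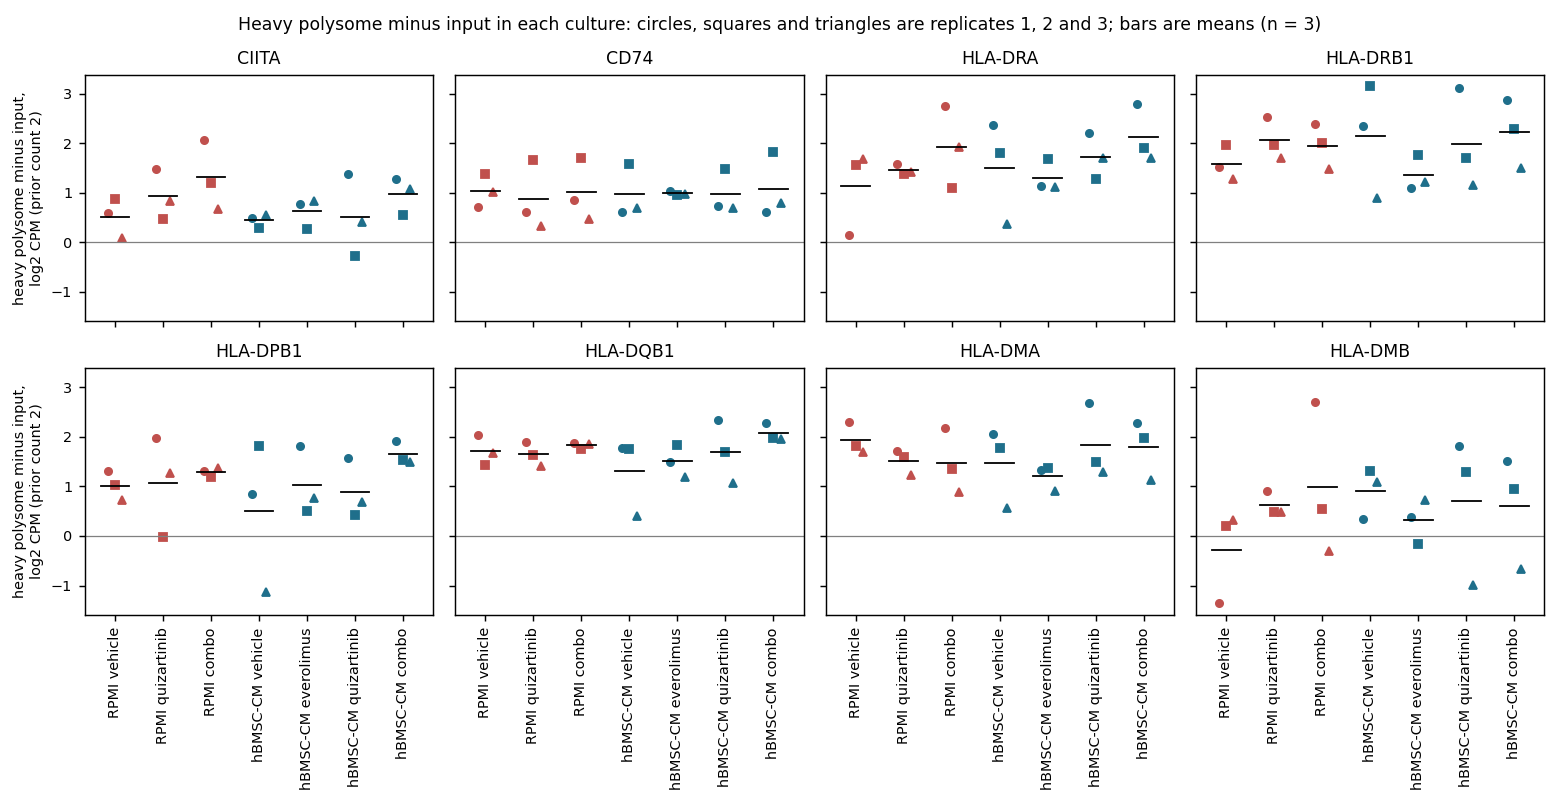
Heavy polysome minus input (log2 CPM, y axis, one scale for all panels) of the 8 tested genes in each culture of the 7 conditions (x axis), with RPMI cultures in red, hBMSC-CM cultures in blue and bars at the means. Nearly all points lie above 0, those of HLA-DRA, HLA-DRB1, HLA-DQB1, HLA-DMA and CD74 in 21 of 21 cultures. The joint test for differences among the 7 conditions called none of the 8 genes. The HLA-DMB values of RPMI vehicle and RPMI quizartinib nevertheless did not overlap.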

How the data were processed

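The authors trimmed paired reads with BBDuk, aligned them to hg38 with STAR 2.6.0a and deposited whole-number counts per gene, without normalization, for 42 libraries (19.4 to 38.8 M counts, median 30.2 M), and 0 columns were left unused. Whether counting used strand is not given in the sources used here. Here, 58884 rows were summed to 57353 names, and 12939 genes with a mean of at least 1 count and 1 CPM, which hold 99.8% of counts, were tested with edgeR 4.0.16 (R 4.3.3; TMM, robust quasi-likelihood, 14 group means, no block; Benjamini-Hochberg adjusted p under 0.05 is a call; common biological coefficient of variation 0.279). Polysome minus input is the interaction with fraction. CPM is TMM-scaled. The prior count for log2 CPM was 2. A fold against a group at 0 used a floor of 3 counts over the group. Floors cover counting error only.

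The members and gene lists were chosen with earlier results of these data known. From each list, up to 2 called genes of largest change were named in 3 input comparisons (quizartinib in RPMI, and the medium with either vehicle or quizartinib), and CD4, IFNGR1, IRF1, RFX5 and IFI30 in any. Of the lists, 1 gene is not reported here. Comparisons that share a control group are not independent. Overlap of replicate values was read for the members only, so its share over all genes is not known. Alternatives were limma 3.58.1 (voom), DESeq2 1.42.0, other scalings, filters, blocks and each of 21 cultures left out. The fits were tested on simulated data.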

Additional observations from a re-analysis of the deposited data

How the results depend on the processing

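Over 3835 alternatives to the tests of single members, 3794 kept their side of the threshold, 6 lost a call, 35 gained one and 0 called values changed sign. Of the 3794, 132 changed sign, all in values that were not called. Of the members, 8 were called under quizartinib in RPMI (5 to 9 over alternatives, 7 to 8 with a culture left out), 5 in hBMSC-CM (4 to 7, and 4 to 5), and 7 for polysome minus input (5 to 9, and 7 to 8). With the stricter filter (10 CPM) the first was 5, because only 5 members were tested.

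For hBMSC-CM against RPMI without drug, 0 members were called, but 1 without the filter (HLA-DPA1), 1 with DESeq2 and 1 with RLE factors (HLA-DPB1), and 0 to 1 with a culture left out. For everolimus in hBMSC-CM, 0 were called, but 2 without the filter and 1 with DESeq2. Whether replicate numbers pair the samples was not settled. Deviations from the group means correlated above 0.1 in 45 of 63 same-numbered pairs within input (median 0.412), 46 of 63 within polysomes (0.444) and 15 of 21 between fractions of a condition (0.178), and in 67 of 126 pairs between fractions of different conditions (0.112), so most but not every pair moved together, and the numbers were not used as a block. With the replicate block, 8 members were called under quizartinib in RPMI and 7 in hBMSC-CM (adding CD74, adjusted p 0.0176, and HLA-DMB, 0.0407), 2 for medium without drug (HLA-DMA, 0.0307, and HLA-DPB1, 0.0151), 2 for everolimus (HLA-DRA, 0.0138, and HLA-DRB1, 0.00805) and 8 for polysome minus input. With a replicate block within each fraction, medium without drug gave 2, everolimus 3 (adding HLA-DMA, 0.00442), medium under quizartinib 1 and medium under the combo 1, the last both CD74 (0.0185 and 0.0247). The cause was not tested. Counts over all genes ranged from 3384 to 6333 for quizartinib in RPMI, 929 to 3803 in hBMSC-CM, 105 to 585 for medium without drug and 7602 to 14284 for polysome minus input. Depth limits HLA-DPA1, HLA-DPB1, HLA-DQA1 and HLA-DMB most.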
